A study of Mus musculus with 7 samples.

Results

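The 34 genes described here encode the contractile, calcium-handling and energy proteins of skeletal muscle, and all 34 were found by symbol among the 28233 genes of the expression table. Of these genes 15 are characteristic of fast fibres, 7 of slow fibres, and 12 serve both fibre types. Bulk RNA had been sequenced from 7 tumours of B16mhgp100, a mouse B16 melanoma line, grown under the skin of C57BL/6 mice. The cells of 4 tumours (Cr1l 1 to Cr1l 4) over-expressed Cr1l, the gene of the complement regulator Crry, and those of 3 tumours (Vec 5 to Vec 7) carried the vector. All tumour-bearing mice were given anti-PD1, an antibody against an inhibitory T cell receptor, from day 10 after inoculation, at 200 µg per dose and 2 doses per week, and tumours were collected 1 day after the last of 4 doses. In their titles, Vec 6 and Vec 7 are numbered in an unexplained way that sets them apart from Vec 5. The labels name no age, sex or cell clone, and every comparison is between tumours under the antibody. Values are TPM, a length-corrected relative transcript abundance within a tumour, so levels of different genes can be set side by side. In bulk RNA, fewer muscle cells and less muscle RNA per cell cannot be told apart.

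A skeletal muscle fibre is filled with sarcomeres, in which myosin thick filaments pull on actin thin filaments between Z-discs. A nerve impulse opens calcium channels, calcium binds troponin on the thin filament, and the calcium pump of the sarcoplasmic reticulum ends the contraction. Fast and slow fibres build the same machine from different gene copies of myosin, troponin and light chains, and mouse muscles of the trunk and skin are mostly fast. The skin of the mouse carries a thin sheet of striated muscle, the panniculus carnosus, below the dermis. B16 cells are of the melanocyte lineage, which forms no sarcomeres.

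Muscle promoters are bound by MyoD family factors at E-boxes, by MEF2 and, at CArG boxes, by serum response factor. Promoter windows of 300 bases, from 250 before to 50 after a gene's start, were held for 27 of the 34 genes in a RefSeq table of build GRCm38.p6, an older build than the mm39 of the expression table. The windows of Acta1, Myh4 and Mylpf are shown. Acta1 is the most abundant gene of the group, Myh4 encodes a fast myosin heavy chain, and Mylpf departs from the others in Cr1l 1. Capitals mark the E-box, which reads CANNTG, the CArG box and the MEF2 motif. They also mark the TATA box, searched as the letters TATAAA. All were searched on both strands, and in Myh4 the MEF2 motif overlaps a TATA box match of the opposite strand. The Acta1 window is chr8:123894726-123895025 on the minus strand, that of Myh4 chr11:67237562-67237861 and that of Mylpf chr7:127211358-127211657, both on the plus strand.
Acta1: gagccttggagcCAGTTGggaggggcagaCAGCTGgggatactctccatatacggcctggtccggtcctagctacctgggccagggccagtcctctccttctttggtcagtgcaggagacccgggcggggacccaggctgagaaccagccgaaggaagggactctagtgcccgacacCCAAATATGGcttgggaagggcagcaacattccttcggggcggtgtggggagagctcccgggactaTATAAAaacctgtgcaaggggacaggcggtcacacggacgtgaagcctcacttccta
Myh4: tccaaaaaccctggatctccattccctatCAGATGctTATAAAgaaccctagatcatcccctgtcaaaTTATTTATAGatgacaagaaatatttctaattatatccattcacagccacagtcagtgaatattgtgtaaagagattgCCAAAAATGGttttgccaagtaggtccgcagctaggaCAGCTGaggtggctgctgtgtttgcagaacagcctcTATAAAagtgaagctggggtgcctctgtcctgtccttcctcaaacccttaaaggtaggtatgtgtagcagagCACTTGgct
Mylpf: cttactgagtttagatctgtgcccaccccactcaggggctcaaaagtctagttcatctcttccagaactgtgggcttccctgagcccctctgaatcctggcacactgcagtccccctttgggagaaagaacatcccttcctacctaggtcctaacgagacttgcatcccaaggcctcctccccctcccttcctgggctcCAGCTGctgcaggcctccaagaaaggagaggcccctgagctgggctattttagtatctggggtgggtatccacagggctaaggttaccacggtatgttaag
The Acta1 window holds 2 E-boxes, 1 CArG box and 1 TATA box match, and the Myh4 window 3 E-boxes, 1 CArG box, 1 MEF2 motif and 3 TATA box matches. The Mylpf window holds 1 E-box and no match to the other motifs. An E-box was found in 28 of the 34 windows of these genes (82.4%) and in 72.3% of all 32851 windows, so that motif is common everywhere. CArG boxes stood in 5 windows (14.7%, against 1.63% of all) and MEF2 motifs in 4 (11.8%, against 3.19%). TATA box matches stood in 7 (20.6%, against 13.6%). These are matches of letters, and some genes have more than 1 window.

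Skeletal muscle transcripts were present in 4 tumours, 3 with vector and 1 with Cr1l, and were scarce in the other 3. Summed over the 34 genes, they took 3114 TPM in Vec 6, 640.2 in Vec 5, 566 in Cr1l 3 and 139 in Vec 7, or 0.313%, 0.0643%, 0.0568% and 0.0140% of all TPM. In Cr1l 1, Cr1l 2 and Cr1l 4 the sums were 50.9, 37.8 and 47.2 TPM. The 3 lowest sums were all of Cr1l tumours, and the 3 Vec tumours lay above them. The groups overlap through Cr1l 3, which lies between Vec 5 and Vec 7. Vec 6 was the highest tumour for 30 of the 34 genes, against 13% of all genes in the table. Within the Cr1l group, Cr1l 3 was the highest for 15 of 15 fast, 12 of 12 shared and 4 of 7 slow genes. The share of all genes with Cr1l 3 highest in that group was not counted. By Dixon's test for a lone high value among the 4, Cr1l 3 stood apart for 21 of the 34 genes, against 7.46% of the table.

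**Figure D1:**
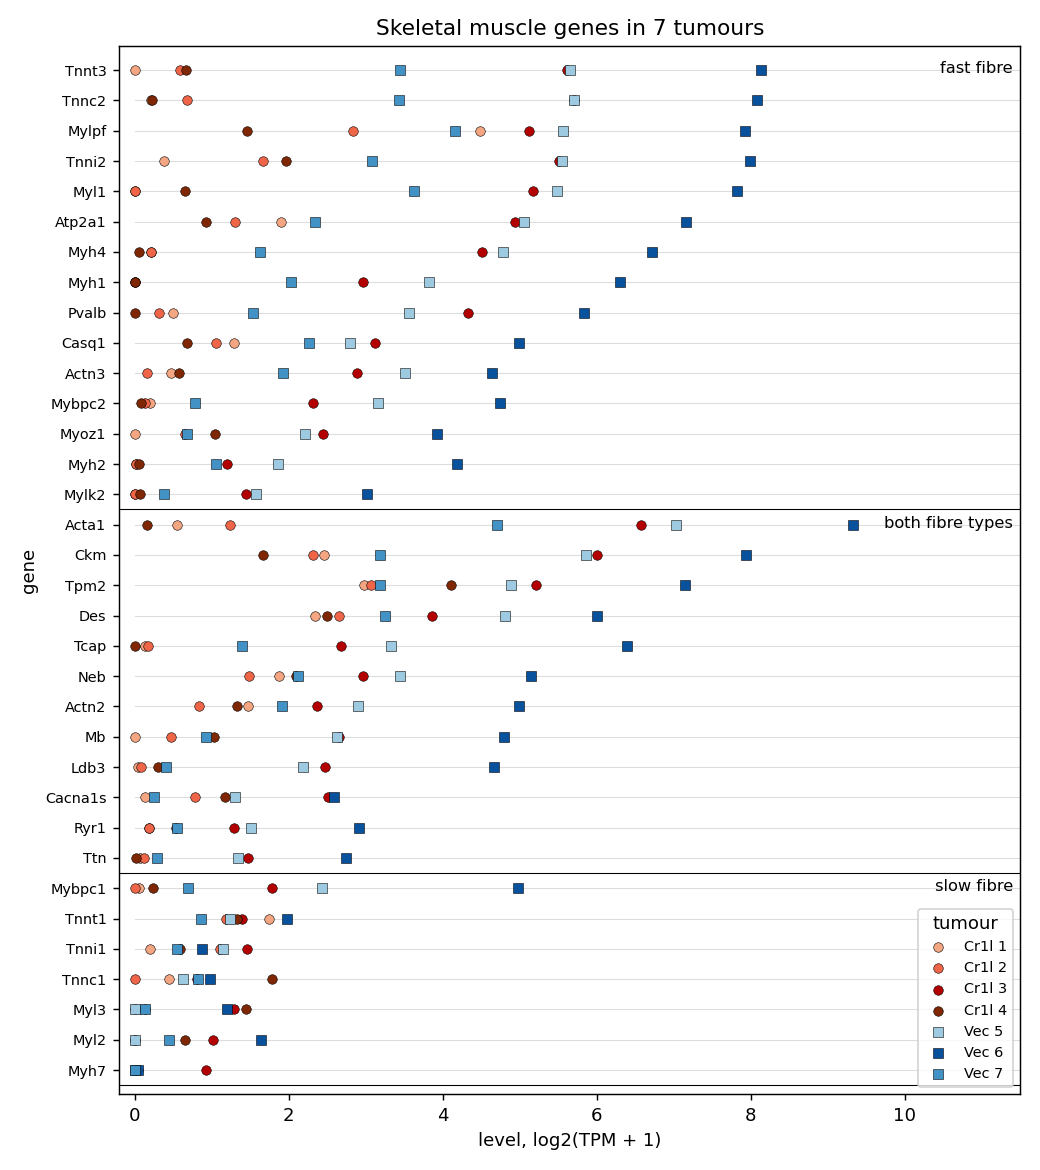
Level of each of the 34 genes in each tumour, as log2(TPM + 1) on the x axis, with genes on the y axis grouped by fibre type and ordered by mean. Circles are Cr1l tumours and squares are Vec tumours; Vec 6 is the rightmost point for 30 genes, and most slow genes stay below 3 TPM in every tumour.

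The 4 tumours with muscle transcripts ranked the genes alike. Spearman's rho over the 34 genes, given as a description, was 0.973 between Vec 5 and Vec 6, 0.948 between Vec 5 and Cr1l 3, and 0.852 between Cr1l 3 and Vec 7. The points share a library and a TPM scale within each tumour. Acta1 led in all 4, with 20.6% of the summed level in Vec 6, 20.3% in Vec 5, 18.1% in Vec 7 and 16.7% in Cr1l 3. Fast genes made up 54.7% to 56.8% of the sum in these 4 tumours. Relative to Vec 5, Vec 6 was higher by a median of 5.17-fold over the 15 fast genes, from 2.31 (Actn3) to 6.49 (Myh2). Over the 12 shared genes the median was 4.50, from 2.35 (Des) to 9.20 (Tcap). Vec 5 and Cr1l 3 stood close, with a median ratio of 1.14 over the fast genes, from 0.566 (Pvalb) to 2.05 (Myh2).

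The myosin heavy chains, the motors of the thick filament, showed the fast pattern most plainly. Myh4, the IIb chain of the fastest fibres, stood at 0.16, 0.16, 21.71 and 0.04 TPM in Cr1l 1 to Cr1l 4 and at 26.57, 104.33 and 2.08 TPM in Vec 5 to Vec 7. Myh1, the IIx chain, was listed at 0 in Cr1l 1, Cr1l 2 and Cr1l 4 and reached 6.84 in Cr1l 3, with 13.14, 77.98 and 3.08 in the Vec tumours. For both genes Cr1l 3 falls inside the range of the vector tumours, so the groups overlap. Myh2, the IIa chain of fast oxidative fibres, was lower, at 17.13 TPM in Vec 6, 2.64 in Vec 5, 1.29 in Cr1l 3, 1.08 in Vec 7 and at most 0.04 elsewhere. Myh7, the slow chain, reached 0.90 TPM in Cr1l 3 and at most 0.03 in the remaining tumours, Vec 6 included. The fast chains are close copies of one another, so the split of reads among Myh1, Myh2 and Myh4 is uncertain.

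Among the myosin light chains, which brace and tune the motor, Myl1 followed the heavy chains. Its values were 0, 0, 35 and 0.57 TPM in Cr1l 1 to Cr1l 4 against 43.84, 225.48 and 11.37. Mylpf, the fast regulatory light chain, stood at 21.35, 6.12, 33.68 and 1.76 TPM against 46.02, 242.34 and 16.95 TPM. Its 21.35 TPM in Cr1l 1 is above Vec 7 and made 41.9% of the summed level of the 34 genes in that tumour, where Myl1, Myh1 and Tnnt3 were listed at 0. Mylk2, the skeletal myosin light chain kinase, was present at 7.07 TPM in Vec 6, 1.98 in Vec 5 and 1.73 in Cr1l 3, and at 0.30 or less in the other four. The slow light chains Myl2 and Myl3 did not exceed 2.11 and 1.73 TPM in any tumour, and Myl3 was highest in Cr1l 4.

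Among the thin filament genes is Acta1, skeletal muscle actin, which had the highest mean of the 34. It stood at 0.47, 1.37, 94.29 and 0.12 TPM in Cr1l 1 to Cr1l 4 and at 129.86, 642.85 and 25.04 TPM in Vec 5 to Vec 7. The 3 fast troponin subunits were close to one another in the 4 tumours with muscle transcripts. Tnnt3, which ties troponin to tropomyosin, stood at 0, 0.50, 47.79 and 0.59 TPM against 49.34, 279.08 and 9.86. Tnni2, the inhibitory subunit, stood at 0.30, 2.19, 44.35 and 2.89 TPM against 45.96, 253.61 and 7.47. Tnnc2, the calcium sensor, stood at 0.16, 0.60, 51.05 and 0.17 TPM against 51.04, 269.33 and 9.81. For each subunit, Cr1l 3 is level with Vec 5 and above Vec 7. Neb, whose product nebulin spans the thin filament, stood at 2.66, 1.81, 6.80 and 3.27 TPM against 9.89, 34.51 and 3.37. Tpm2, a tropomyosin that other cells also make, stood at 6.85, 7.40, 36.16 and 16.25 TPM against 28.45, 140.04 and 8.11.

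Z-disc and titin genes were also highest in Vec 6, at smaller values than Acta1, and in Ldb3, Ttn and Myoz1 Cr1l 3 exceeded Vec 5. Tcap, the titin cap, reached 82.86 TPM in Vec 6, 9.01 in Vec 5, 5.42 in Cr1l 3 and 1.62 in Vec 7, and at most 0.13 in the other Cr1l tumours. Ldb3, a Z-disc scaffold, stood at 24.38 in Vec 6, 4.56 in Cr1l 3, 3.57 in Vec 5 and 0.33 TPM in Vec 7. Actn3, the actinin of fast fibres, stood at 0.39, 0.12, 6.43 and 0.49 TPM against 10.41, 24.04 and 2.79. Actn2, which serves both fibre types, stood at 1.77, 0.79, 4.16 and 1.52 TPM against 6.50, 30.80 and 2.76. Both actinin genes overlap between the groups through Cr1l 3 alone. Ttn, the giant spring protein, ranged from 0.01 to 1.77 TPM with Cr1l and was 1.53, 5.70 and 0.22 with vector. Myoz1, which links calcineurin to the Z-disc, had 14.16 TPM in Vec 6 and 0.60 in Vec 7, below the 1.07 of Cr1l 4. Des, the intermediate filament around Z-discs and also a protein of smooth muscle and pericytes, stood at 4.08, 5.31, 13.49 and 4.67 TPM against 26.90, 63.24 and 8.54.

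Calcium-handling genes followed, with 1 exception. Atp2a1, the fast calcium pump, stood at 2.75, 1.46, 29.67 and 0.91 TPM in Cr1l 1 to Cr1l 4 against 32.29, 142.45 and 4.05. Pvalb, the calcium buffer of the fastest fibres, was higher in Cr1l 3 (19.10 TPM) than in Vec 5 (10.82), with 55.89 in Vec 6, 1.91 in Vec 7 and 0.41 or less in the remaining 3. Casq1, the calcium store protein, stood at 30.68 TPM in Vec 6 and between 3.81 and 7.69 in Vec 7, Vec 5 and Cr1l 3. Ryr1, the calcium release channel, had 6.54 TPM in Vec 6 and 1.85 or less elsewhere. Cacna1s, its voltage sensor, was the exception: Cr1l 3 at 4.70 TPM was close to Vec 6 at 5.00, and Cr1l 4 at 1.25 was close to Vec 5 at 1.47.

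Energy genes are represented by Ckm, muscle creatine kinase, and Mb, the oxygen store myoglobin. Ckm stood at 4.52, 3.99, 63.39 and 2.18 TPM against 57.01, 243.14 and 8.13 TPM, so Cr1l 3 exceeded Vec 5. Mb stood at 0, 0.39, 5.27 and 1.05 TPM against 5.18, 26.89 and 0.90, with Cr1l 4 above Vec 7.

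Slow fibre genes, apart from Mybpc1, stayed low in every tumour and followed the fast genes only in part. Without Mybpc1 they summed to 8.18 TPM in Vec 6, 7.50 in Cr1l 3, 6.76 in Cr1l 4 and at most 3.11 in the rest. The summed level of the 7 was 38.6 TPM in Vec 6, of which Mybpc1 gave 30.42, and between 2.45 and 9.93 TPM in the other 6 tumours. Mybpc1, named for slow myosin-binding protein C but known also from fast fibres, stood at 0.04, 0, 2.43 and 0.18 TPM against 4.39, 30.42 and 0.62, the order of the fast genes. Its fast partner Mybpc2 stood at 0.15, 0.10, 3.98 and 0.06 TPM against 7.92, 25.81 and 0.73. Tnnt1, slow troponin T, ranged over all 7 tumours only from 0.82 TPM (Vec 7) to 2.93 (Vec 6). Tnni1 ranged from 0.15 TPM in Cr1l 1 to 1.75 in Cr1l 3. Tnnc1, which the heart also uses, was highest in Cr1l 4 at 2.43 TPM and listed at 0 in Cr1l 2. Without Mybpc1, the slow genes took 0.263% of the muscle sum in Vec 6, 0.486% in Vec 5, 1.32% in Cr1l 3 and 1.82% in Vec 7, against 5.85%, 6.48% and 14.3% in Cr1l 1, Cr1l 2 and Cr1l 4.

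Fast genes exceeded their slow partners in all 4 tumours with muscle transcripts for 6 of the 7 pairs compared. The log2 ratio of Tnnt3 to Tnnt1, with 1 added to each TPM, was 4.21 in Cr1l 3 and 4.42, 6.16 and 2.58 with vector, but -1.75, -0.60 and -0.66 in Cr1l 1, Cr1l 2 and Cr1l 4. For Tnnc2 to Tnnc1 it was 4.89 in Cr1l 3 and 5.07, 7.10 and 2.61 in the Vec tumours, with -0.23, 0.68 and -1.55 in the other Cr1l tumours. Mylpf to Myl2 differed from these in Cr1l 1, where the ratio was 4.48, above the 4.10 of Cr1l 3. Mybpc2 to Mybpc1 stayed between -0.23 and 0.73 in all 7. No test was run on these ratios.

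**Figure D2:**
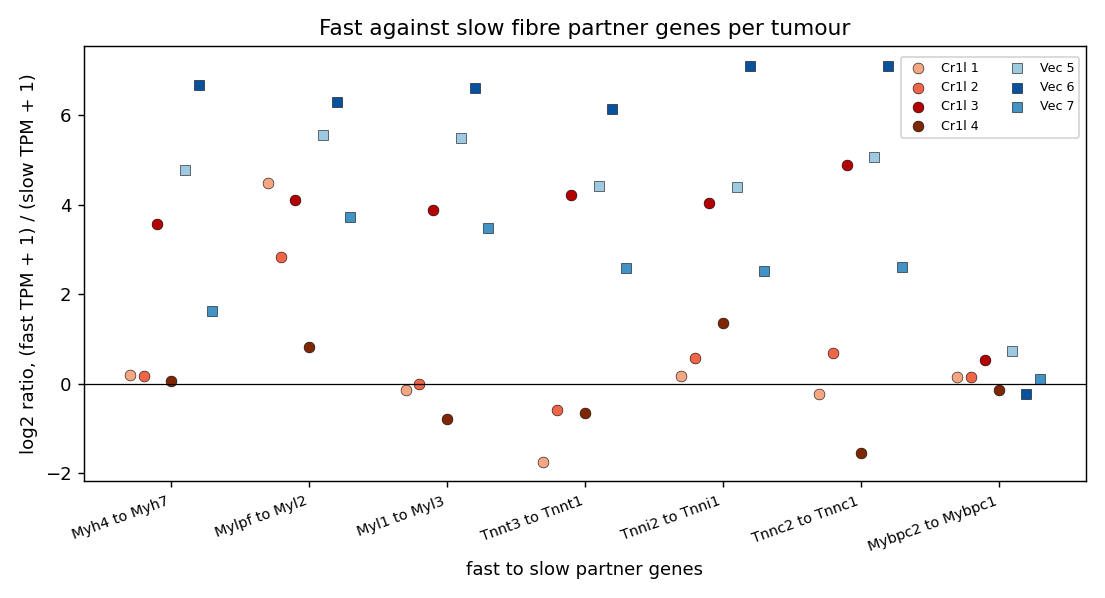
Log2 ratio of each fast gene to its slow partner, (TPM + 1) over (TPM + 1), on the y axis for 7 pairs on the x axis, with 1 point per tumour (circles Cr1l, squares Vec). Cr1l 3 and the 3 Vec tumours lie above 0 for 6 pairs, while Mybpc2 to Mybpc1 stays between -0.23 and 0.73.

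A low level of some of these genes was measured in every tumour. Mylpf, Tpm2, Neb, Ckm and Des were at 1 TPM or more in all 7, and they are the 5 of the 34 genes for which this holds. In Cr1l 4 the leading genes were Tpm2 and Des, and Tpm2, Des, Ckm and Neb together made 55.9% of the muscle sum, against 15.4% in Vec 6. The same 4 genes made 35.6% in Cr1l 1 and 48.9% in Cr1l 2. The order of the genes in Cr1l 4 had a rho of 0.123 with Vec 5 and 0.098 with Vec 6. For Cr1l 1 the rho was 0.395 with Vec 5 and 0.326 with Vec 6, and for Cr1l 2 it was 0.523 and 0.476. Smooth muscle and pericyte markers, a list without Des and Tpm2, summed to between 193 and 344 TPM in the Cr1l tumours and 158 to 265 in the Vec tumours. Mcam, at 35.71 to 102.31 TPM, and Smtn, at 44.99 to 53.24, had the highest means of that list and weigh most in its sums. Myh11, the smooth muscle myosin, stood lower, at 1.25 to 8.20 TPM. Which cells held Des and Tpm2 was not tested. Acta2, the smooth muscle actin gene, stood at 14.62, 15.71, 35.70 and 22.09 TPM against 23.70, 32.41 and 9.78, so it was measured in every tumour. No gene of the 13 was listed at 0 in any tumour, but Cnn1 stood at 0.07, 0.14, 0.15 and 1.37 TPM against 0.23, 2.03 and 0.16.

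Compared as groups, the Cr1l tumours had lower means of the fast and shared genes, and none of the differences passed the test. Of the 34 genes, 29 averaged 1 TPM or more and were tested by limma on log2(TPM + 1): all 15 fast, all 12 shared and 2 slow genes. At an adjusted p under 0.05, 0 were higher and 0 lower, where 0.0134% of all 14954 tested genes were called lower and 0% higher. The adjusted p by limma ran from 0.254 (Myh1) to 0.942 (Tnnt1). At an unadjusted p under 0.05, 12 of the 29 were lower (8 fast and 4 shared), against 6.07% of all tested genes, and 0 were higher, against 9.49%. The groups overlapped for all 34 genes, while 4.69% of the genes in the table lay wholly lower in Cr1l tumours. Median log2 differences, Cr1l minus Vec, were -2.41 over the 15 fast genes, -1.72 over the 12 shared and -0.02 over the 7 slow, against 0.03 over the whole table. The slow median is not comparable, since 5 of the 7 averaged under 1 TPM, where log2(TPM + 1) keeps differences small. Mybpc1, a slow gene that was tested, had -2.18 (SE 0.95, limma adjusted p = 0.323), and Tnnt1 had 0.06. The difference was negative for 15 of 15 fast, 12 of 12 shared and 4 of 7 slow genes and for 42.9% of the table.

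**Figure D3:**
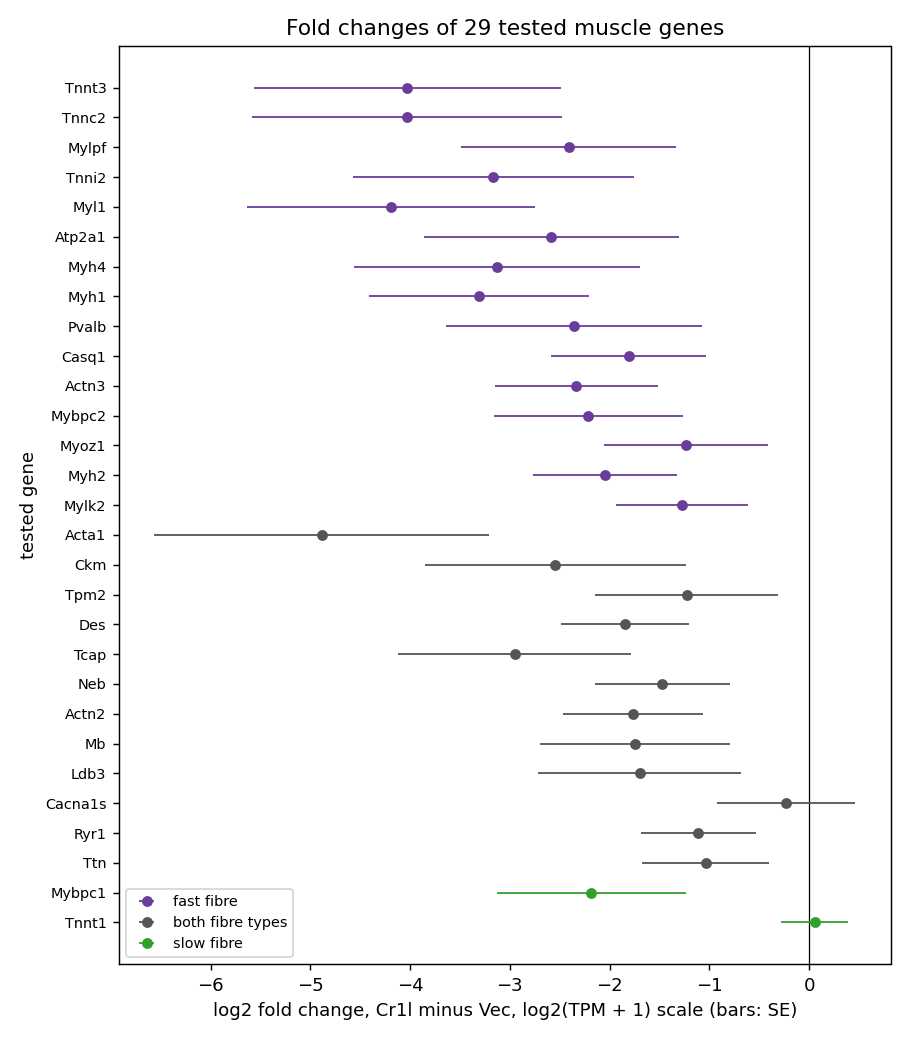
Log2 fold change of log2(TPM + 1), Vec subtracted from Cr1l, for the 29 tested genes, coloured by fibre type, with bars of 1 SE from limma. All fast and shared genes lie below 0, the slow genes Mybpc1 and Tnnt1 lie at -2.18 and 0.06, and 0 of the 29 pass an adjusted p of 0.05.

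Acta1 had the largest difference of the group, a log2 fold change of -4.89 (limma adjusted p = 0.260, SE 1.68), with 24.1 ± 46.8 TPM (SD, n = 4) against 266 ± 331 TPM (SD, n = 3). Myl1 had -4.19 (SE 1.44, adjusted p = 0.260), Tnnc2 -4.03 (SE 1.56, 0.291) and Tnnt3 -4.03 (SE 1.54, 0.287). In each case the SD exceeds the mean in both groups. Actn2 had -1.77 (SE 0.70, adjusted p = 0.297 by limma), Des -1.85 (SE 0.64, 0.263) and Neb -1.47 (SE 0.67, 0.337). The exact permutation test, two-sided, gave p = 0.0857 for Acta1, Myl1, Tnnt3, Des and Actn2, and its smallest p for any of the 34 was 0.0571 (Myh2), where 7 tumours allow 0.0286 at best. The authors' deposited table, from their own count test, gave an adjusted p under 0.05 to 3 of the 34, against 2.27% of its genes called lower. These were Des with a log2 fold change of -2.35 (adjusted p = 0.0123), Actn2 with -2.81 (0.0139) and Neb with -2.24 (0.0339) in the authors' deposited table. The remaining genes had 0.0981 to 0.997 there, and 1 had none.

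The size of these differences moved with single tumours and with the pseudocount. Without Vec 6 the median difference of the 13 fast genes then tested was -1.69, and 0 of the 25 genes tested in all had an unadjusted p under 0.05 and were lower, against 5.10% of all genes tested. Without Vec 7 the median was -3.41 with 27 such genes, against 5.06%, and without Cr1l 3 it was -3.37 with 23, against 5.38%. With 0.1 in place of 1 added to each TPM, the median was -3.75 with 14, against 6.10%. The adjusted p by limma stayed at 0.114 or above in these fits.

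Other genes of striated muscle, from 5 lists of 90 genes in all, of which 87 were in the table, gave 0 calls in either direction among the 53 tested. The 25 further sarcomere and Z-disc genes had a median log2 difference of -1.26, all 25 negative, and 24 were highest in Vec 6. Csrp3, a muscle LIM protein, stood at 0.11, 0, 3.92 and 0 TPM against 7.74, 72.10 and 2.62. Xirp2, an actin-binding repair protein, stood at 0.01, 0, 0.99 and 0 TPM against 3.35, 27.71 and 1.52, with no overlap between the groups (adjusted p = 0.238 by limma). The 3 most abundant of this list varied less between tumours. Hspb6, a small heat shock protein, stood at 10.10, 12.24, 16.35 and 9.98 TPM against 26.10, 75.45 and 21.79 (adjusted p = 0.223). Trim63, a ubiquitin ligase of muscle wasting, was highest in Vec 5 at 68.15 TPM and lowest in Cr1l 3 at 26.80. Ankrd23 lay between 14.04 and 19.46 TPM in 6 tumours and at 33.68 in Vec 6. For 7 of the 25 the groups did not overlap, against 4.69% of the table. Excitation and calcium genes had a median of -0.55 with 13 of 18 negative, and their most abundant members Asph, Srl and Cacnb1 had log2 fold changes of 0.26, 0.10 and 0.69. Muscle metabolism genes had -0.72 with 12 of 16 negative. Their most abundant members are used by many tissues: Gys1, glycogen synthase, had 0.52, Slc2a4, the insulin-responsive glucose transporter, -0.79, and Pfkm, phosphofructokinase, -0.07. Pygm, muscle glycogen phosphorylase, followed the fast genes at 2.08, 2.36, 11.17 and 1.92 TPM against 11.70, 38.16 and 4.56. Muscle regulatory genes had -0.17 with 14 of 17 negative. Pax3, Mef2d and Eya1 led it, at -0.57, -0.36 and -1.12. Pax3, also a factor of the melanocyte lineage, lay between 35.77 and 107.47 TPM. Embryonic and cardiac genes had -0.01 with 6 of 11 negative, and Nppb, Tnni3 and Myl4 had -0.08, 0.20 and -0.79.

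Markers of skin keratinocytes were, like the muscle genes, highest in Vec 6, with Cr1l 3 and Vec 5 next. The 8 markers summed to 1400 TPM in Vec 6, 114 in Cr1l 3, 77.5 in Vec 5 and 18.5 in Vec 7, and to 9.70, 10.7 and 32.1 in Cr1l 1, Cr1l 2 and Cr1l 4. Krt5 and Krt1, which define basal and upper layers, were both listed at 0 in Cr1l 1, Cr1l 2 and Cr1l 4. Krt14, of the basal layer, was listed at 0 in Cr1l 1 and Cr1l 4 and at 0.10 in Cr1l 2. Of the 8 markers, 6, 5 and 4 were listed at 0 in Cr1l 1, Cr1l 2 and Cr1l 4. In the same order, Sbsn stood at 8.72, 10.32 and 24.44 TPM, Krt10 at 0.98, 0.31 and 2.05, and Krtdap at 0, 0 and 5.57. Red cell markers summed to 41285 (Vec 6) and 9694 TPM (Vec 7), while Vec 5, Cr1l 3 and the rest had 106 to 416. Fibroblast markers summed to 6084 and 4870 TPM in Cr1l 3 and Cr1l 4 and to 148 to 1184 in the other 5. Adipocyte markers summed to 313 TPM in Cr1l 3, of which Fabp4 gave 297.17, and to 34.05 to 166 elsewhere. Cfd and Adipoq, next to Fabp4 in mean level, were highest in Vec 6 (33.65 TPM) and Cr1l 4 (5.53 TPM). The 8 melanocyte markers summed to 9173 to 20749 TPM in all 7 tumours. The part of skin, blood, fat or stroma in the muscle values was not tested.

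**Figure D4:**
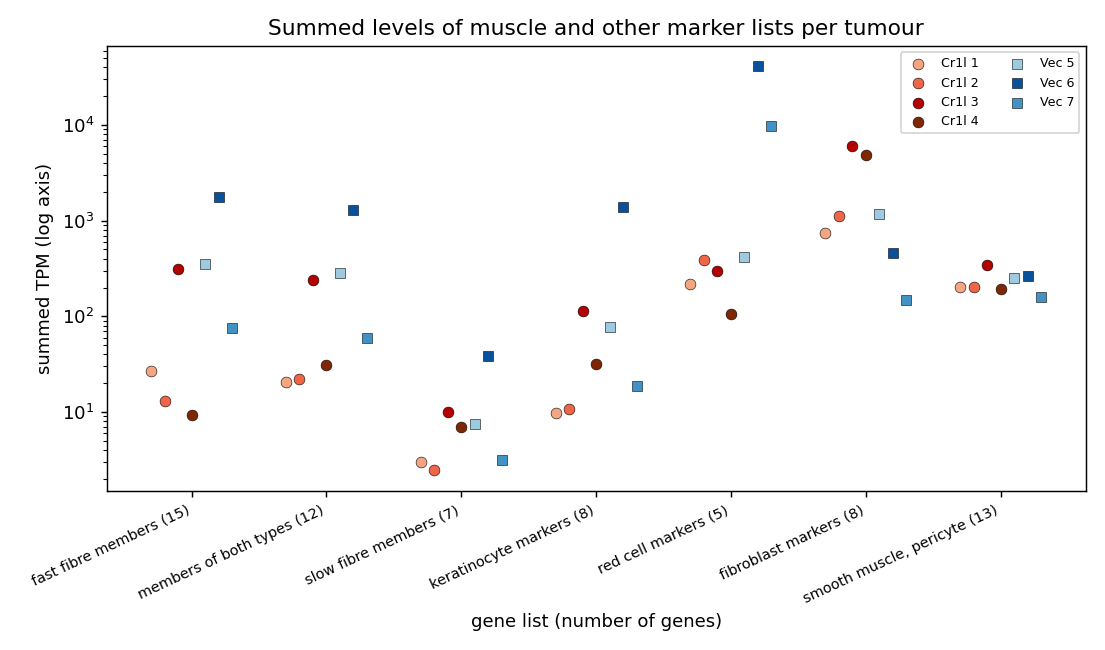
Summed TPM per tumour, on a log axis, of the fast, shared and slow muscle genes and of 4 marker lists named on the x axis with their gene numbers; circles are Cr1l tumours and squares Vec tumours. Fast and shared muscle genes and keratinocyte markers are highest in Vec 6, while red cell markers are high in Vec 6 and Vec 7.

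Cr1l itself stood at 76.37 to 83.57 TPM in the 4 Cr1l tumours and at 46.29 to 54.94 in the 3 Vec tumours, on the side each label gives. TPM keeps no sequencing depth, so no counting error can be attached to a value, and a level under about 1 TPM may rest on few reads.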

How the data were processed

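The authors deposited expression as log2(TPM + 1), 1 value for each symbol in each tumour, from RSEM on build mm39 per the submitters' processing notes; no version, aligner or annotation was found in those notes. According to the labels' protocols, poly-A RNA was selected and libraries kept no strand. With the logarithm undone the values sum to between 993520 and 996031 per tumour. No 2 tumour columns are identical, and tumours are taken as separate samples; whether each came from its own mouse is not stated, so p-values measure the spread between these tumours.

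The 14954 genes averaging 1 TPM or more were tested with limma 3.58.1 in R 4.3.3 (group as the only term, trended moderated variance, two-sided, Benjamini-Hochberg, threshold 0.05). Fold changes on the log2(TPM + 1) scale understate changes of low genes. Single genes also had an exact permutation test over 35 splits. The script was tested on simulated data. The authors' deposited table of a DESeq2 comparison gives a mean normalized count (signal), log2 fold change, test score, p-value and adjusted p-value per Ensembl identifier; all 34 genes matched through a GRCm38 name table, and its numerator was read as Cr1l from the sign of Cr1l itself. The deposited repertoire table was not used.

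The 34 genes, the fibre classes and the other lists were chosen with earlier results of these data known. The naming rule takes the 34 genes and, from each other list, the 3 genes with the highest mean. Csrp3, Xirp2, Pygm, Acta2, Cnn1, Krt5, Krt1, Sbsn, Myog, Myod1, Myf6, Cdh15, Myh8, Sln, Xirp1 and Hspb7 were chosen after their values were seen. So were Myh11 and Kcnj2. Most leading marker genes are given only in sums.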

Additional observations from a re-analysis of the deposited data

Results flagged for a closer look

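Among the 4 Cr1l tumours, Cr1l 3 stood far above the other 3 for 21 of the 34 genes, by a gap that took more of their range than Dixon's 95% critical value. Chance alone marks about 1 group in 20, the genes of a tumour vary together, and 7.46% of all genes in the table met this with Cr1l 3 high. For 13 fast genes the level in Cr1l 3 was 6.84 TPM (Myh1), 1.29 (Myh2), 21.71 (Myh4), 35 (Myl1), 1.73 (Mylk2), 47.79 (Tnnt3), 44.35 (Tnni2), 51.05 (Tnnc2), 6.43 (Actn3), 3.98 (Mybpc2), 7.69 (Casq1), 29.67 (Atp2a1) and 19.10 (Pvalb). Mylpf was not among them, with 21.35 TPM in Cr1l 1 beside 33.68 in Cr1l 3. The slow genes so marked were Mybpc1 at 2.43 TPM and Myh7 at 0.90. The 6 shared genes were Acta1 (94.29), Ttn (1.77), Ckm (63.39), Tcap (5.42), Des (13.49) and Ldb3 (4.56). The summed levels of the fast and shared genes in Cr1l 3, 315 and 241 TPM, were marked in the same way, against 27.1 and 31.0 in the next highest Cr1l tumour.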

How the results depend on the processing

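Over 13 alternative limma settings the number of the 34 genes past an adjusted p of 0.05 was 0 in each direction, and the smallest adjusted p of any of them was 0.114. The fit with arrayWeights stopped before it converged. Genes at an unadjusted p under 0.05 numbered 12 with all tumours, 10 with median-of-ratios scaling, with no filter or with no variance trend, and 14 with a pseudocount of 0.1. They numbered 1 without Vec 6 and Vec 7, which leaves Vec 5 alone and assumes it to vary like the Cr1l tumours. Leaving out 1 tumour gave 0 of 25 tested (Vec 6), 3 (Vec 5), 27 (Vec 7), 7 (Cr1l 1), 5 (Cr1l 2), 23 (Cr1l 3) and 6 (Cr1l 4), where 4.03% to 6.41% of all tested genes were lower at that p. The fast median was -3.75 with a pseudocount of 0.1, from -2.41. Of the fast and shared genes, only Cacna1s turned sign in a fit that tested it; Myh2, Mylk2, Ttn and Ryr1 were not tested without Vec 6. Leaving out 1 tumour turned the sign of Tnnt1 (range -0.19 to 0.37), Cacna1s (-0.79 to 0.37), Srl (-0.33 to 0.66), Pfkm (-0.16 to 0.035), Nppb (-0.17 to 0.11) and Tnni3 (-0.27 to 0.54). Pfkm was 0.019 with arrayWeights and 0.10 without Vec 6 and Vec 7, Nppb 0.015 without both and Tnni3 -0.15 with arrayWeights. The cause was not tested. With 1 tumour left out, the Cr1l median ratio of Tnnc2 to Tnnc1 ranged from -0.23 (without Cr1l 2 or Cr1l 3) to 0.68, and the Vec median of Mybpc2 to Mybpc1 from -0.067 (without Vec 5) to 0.41. A pseudocount of 0.1 took the first to 0.99, Myh4 to Myh7 (Vec) to 8.06, Myl1 to Myl3 (Vec) to 7.33, Mylpf to Myl2 (Cr1l) to 5.44 and Mybpc2 to Mybpc1 (Cr1l) to 0.76. The summed fast-to-slow ratio had medians of 2.42 (Cr1l) and 5.37 (Vec) on the log2 scale, 2.04 to 2.81 and 4.79 to 5.43 with 1 tumour left out. No paired analysis was possible because the tumour numbers of the groups do not coincide.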

Other observations

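Of the 17 muscle regulatory genes in the table, 6 were wholly lower in the Cr1l tumours, against 4.69% of all genes, and 0 wholly higher. Among the 6 were Eya1, at 23.52 to 109.20 TPM over the 7 tumours, Mef2d, at 58.76 to 93.46, and Cdh15, at most 0.41. Within the Cr1l group, neither Eya1 nor Mef2d followed the sarcomere genes. In Cr1l 3, with Acta1 at 94.29 TPM, they stood at 25.78 and 58.76 TPM. In Cr1l 1, with Acta1 at 0.47 TPM, they stood at 63.14 and 60.87 TPM. The other 3, low in every tumour, follow. Myog, the factor that drives myoblasts to fuse, was listed at 0 throughout the Cr1l group and stood at 0.92, 0.60 and 0.28 TPM in Vec 5, Vec 6 and Vec 7. Myod1 was listed at 0 in the 4 Cr1l tumours and stood at 0.05, 0.12 and 0.17 TPM in the Vec tumours. Myf6, a factor of mature fibres, stood at 0, 0, 0 and 0.07 TPM against 0.73, 0.43 and 0.41. Cr1l 3, with Acta1 at 94.29 TPM, therefore had Myog, Myod1 and Myf6 listed at 0, while Vec 7, with Acta1 at 25.04 TPM, had each of them above 0.

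Myh8, the perinatal myosin, stood at 0, 0, 0 and 0.01 TPM against 0.15, 0.26 and 0.02. Sln, a peptide that brakes the calcium pump, stood at 0, 0, 0.05 and 0 TPM against 2.69, 2.41 and 0.59. Xirp1 stood at 0, 0.02, 0.08 and 0.01 TPM against 1.65, 3.74 and 0.19, and Hspb7, a small heat shock protein of muscle, at 0.08, 0.17, 1.16 and 0.20 TPM against 4.96, 24.46 and 1.55. The groups did not overlap for Myog, Myod1, Myf6, Myh8, Sln, Xirp1 and Hspb7. These 7 genes were picked for that pattern, so no test is given. Of the genes in the table, 4.69% lie wholly lower in Cr1l tumours. All of the 7 but Hspb7 had a mean under 1 TPM. Kcnj2, from the same list as Sln, went the other way and lay wholly higher in Cr1l tumours. Its values were 1.15, 1.36, 1.18 and 0.57 TPM against 0.20, 0.36 and 0.09. The share of the table wholly higher in Cr1l tumours was not counted.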
